A study of Mus musculus with 88 samples.

Results

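The genes described here are the heat shock proteins and DnaJ proteins of the mouse that the arrays could name. They were taken by symbol from the platform's probe-to-gene table: every symbol that starts with Hsp followed by a, b, d, e, h or a digit, or with Dnaj, apart from Hspg2 and Hspbap1. The rule gave 53 member genes, 23 Hsp and 30 Dnaj, among 10698 genes with a probe of a single gene symbol, and all 53 were among the 10518 genes tested. RNA came from RAW 264.7, a mouse macrophage cell line, and each 2-colour custom Agilent array set RNA of treated cells against that of untreated cells in medium, matched for time. Cells received LPS at 100 ng/ml (bacterial lipopolysaccharide, named in the labels with 100 pM lipid binding protein), ISO at 50 nM (isoproterenol, an agonist of beta-adrenergic receptors), PGE2 at 10 µM (prostaglandin E2), or LPS at the same dose with ISO or with PGE2. The labels do not name the binding protein for the combinations. Each treatment lasted 1, 2 or 4 h, which makes 15 groups, with 3 sets of a dye-swap pair in each and 2 sets for PGE2 at 1 h (88 arrays, 44 pairs). Everything was measured in 1 cell line, and whether sets were separate cultures is not stated, so the p-values below measure only the spread between sets.

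Heat shock proteins are chaperones, which hold, fold or unfold other proteins. HSP70 proteins bind stretches of unfolded protein and release them as they split ATP. DnaJ proteins bring them clients and start that step, and nucleotide exchange factors such as the HSP110 proteins end it. Many cytosolic members are switched on by heat shock factors at short repeats in the DNA, while chaperones of the endoplasmic reticulum, where secreted and membrane proteins fold, are switched on by the unfolded protein response. Macrophages given LPS begin to make and secrete large amounts of cytokines.

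Promoters of 4 members that the results turn on are shown to place those control elements beside the values: Dnajb9, the member with the largest ratios; Hspa5, its HSP70 partner in the endoplasmic reticulum; and the near-identical pair Hspa1a and Hspa1b, of which the former passed the test below and the latter did not. Each line gives the 250 bases before the annotated start, 5′ to 3′, from RefSeq (GRCm38.p6), with matches to the searched motifs in capitals. Dnajb9 is at chr12:44210069-44210318 on the minus strand, Hspa5 at chr2:34771840-34772089 on the plus strand, Hspa1a at chr17:34972157-34972406 on the minus strand and Hspa1b at chr17:34959239-34959488 on the minus strand.
Dnajb9: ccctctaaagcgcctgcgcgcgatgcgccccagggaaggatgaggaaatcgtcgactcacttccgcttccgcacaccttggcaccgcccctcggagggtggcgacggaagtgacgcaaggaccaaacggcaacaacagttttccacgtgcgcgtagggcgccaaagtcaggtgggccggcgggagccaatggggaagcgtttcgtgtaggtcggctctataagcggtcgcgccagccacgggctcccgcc
Hspa5: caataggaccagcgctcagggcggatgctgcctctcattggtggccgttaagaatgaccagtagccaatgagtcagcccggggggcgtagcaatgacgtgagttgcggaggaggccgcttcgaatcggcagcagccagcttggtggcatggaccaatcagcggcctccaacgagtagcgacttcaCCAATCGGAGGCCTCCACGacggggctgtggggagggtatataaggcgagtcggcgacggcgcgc
Hspa1a: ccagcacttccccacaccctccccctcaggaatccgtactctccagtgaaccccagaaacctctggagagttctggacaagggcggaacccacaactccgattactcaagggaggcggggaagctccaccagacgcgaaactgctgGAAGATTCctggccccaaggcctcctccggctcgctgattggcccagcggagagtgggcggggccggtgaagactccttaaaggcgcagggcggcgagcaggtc
Hspa1b: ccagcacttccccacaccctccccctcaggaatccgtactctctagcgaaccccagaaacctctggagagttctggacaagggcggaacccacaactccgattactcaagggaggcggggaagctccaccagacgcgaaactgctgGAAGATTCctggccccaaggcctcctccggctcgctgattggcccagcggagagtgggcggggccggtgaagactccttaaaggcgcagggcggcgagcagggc
The capitals mark an endoplasmic reticulum stress element in Hspa5, at positions -65 to -47 from the start, and a heat shock element unit in Hspa1a and in Hspa1b, at positions -104 to -97. No searched motif lay in the printed bases of Dnajb9.

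Both strands were searched in the full windows, from 250 bases before to 50 after each start, with overlapping matches counted. A promoter was listed for 43 of the 53 members. The heat shock element unit was written as GAANNTTC, held by 7.86% of 32851 promoters and 11 of the 43 member genes, or as TTCNNGAA, held by 8.52% of promoters and 6 of the 43. The percentages here count promoters and the member figures count genes, some with several promoters, so they are not shares of the same unit. The endoplasmic reticulum stress element was in 0.119% of promoters and in 3 member genes, Hspa5, Hsp90b1 and Dnajc3, of which only Hspa5 passed the test below in any group. The unfolded protein response element TGACGTGG was in 0.676% of promoters and the cyclic AMP response element TGACGTCA in 1.79%, and neither was in a member's window. A heat shock element unit of either form was found for 13 members, and 5 of the 13 passed the test in at least 1 group, against 12 of the 30 members with no unit. The 5 were Hspa1a, Hsph1, Dnaja1, Dnajb4 and Hspb8. The holders that passed in no group were Hspa1b, Hspb1, Hspb3, Hspd1, Hspe1, Dnaja4, Dnajb6 and Dnajc10. A match is a description of these letters, not evidence of a bound factor. Over the printed 250 bases Hspa1a and Hspa1b were alike at 247 positions (98.8%). Whether a probe to either transcript also binds the other was not tested.

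The values are taken as log2 ratios of treated over medium RNA, so that 1 is a doubling and -1 a halving, and are given as the mean ± SD of the 3 sets unless stated. That the ratio runs as treated over medium is likely rather than stated, and the log base is not stated either, so that each fold rests on base 2. The table does not give its direction, and the basis is that the median of 19 known LPS-induced genes was above 0 on all 54 arrays with LPS, in both dye orientations. The deposited table lists many probes at exactly 0, and such values were kept as a ratio of 0. Of the members, 27 differed from 0 on all 88 arrays, 44 on at least 44 of the arrays and 9 on fewer, with Dnajb8 (3 arrays), Hspb2 (5), Hspb8 (11), Hspb3 (13) and Dnajb3 (19) the sparsest. Within a dye-swap pair, the 2 arrays correlated over all genes at 0.229 to 0.859 in the 27 pairs with LPS, but at -0.59 to 0.357 in the 17 pairs of ISO or PGE2 alone, with 9 below 0. The macrophage markers Cd68, Csf1r, Adgre1, Spi1, Fcgr1 and Msr1 differed from 0 on all 88 arrays, Cd14 and Marco on 87, and Lyz2 on 6. Markers of other cell types were also listed with values other than 0 (Col1a1 on 86 arrays, Cd4 on 83, Krt18 on 6), and without intensities this check does not separate cell types. The RNA was bulk, so fewer cells with a transcript and less of it per cell cannot be told apart.

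In the LPS-containing groups the share of members that moved lay above that of all genes at 1 h and below it at 2 and 4 h. Each group mean was tested against 0 with limma and a Benjamini-Hochberg adjustment over the 10518 genes, at an adjusted p under 0.05. With LPS alone, 6 members rose and 1 fell at 1 h, 13.2% of members against 9.48% of all genes tested (4.64% higher, 4.84% lower). At 2 h 5 rose and 1 fell, 11.3% against 15.9% (8.88% higher, 7.01% lower), and at 4 h 1 rose and 9 fell, 18.9% against 30.7% (14.3% higher, 16.4% lower). With LPS plus ISO, 8 rose and 0 fell at 1 h, 15.1% against 7.43% (4.15% higher, 3.27% lower). At 2 h 5 rose and 0 fell, 9.43% against 13.9% (7.7% higher, 6.15% lower), and at 4 h 4 rose and 8 fell, 22.6% against 30% (14.4% higher, 15.6% lower). With LPS plus PGE2, 4 rose and 2 fell at 1 h, 11.3% against 7.68% (4.7% higher, 2.99% lower). At 2 h 4 rose and 0 fell, 7.55% against 13.3% (7.49% higher, 5.77% lower), and at 4 h 4 rose and 9 fell, 24.5% against 31.6% (15.2% higher, 16.5% lower). Read by direction, the share of members lower at 4 h was that of genes at large, at 17%, 15.1% and 17% of members with LPS, LPS plus ISO and LPS plus PGE2. The share higher at 4 h was below that of all genes, at 1.89%, 7.55% and 7.55% of members. These shares are descriptions and were not compared with a test. The median member stayed close to 0, at 0.02, 0.01 and -0.02 with LPS alone at 1, 2 and 4 h, where the median of all genes was 0.

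Over the 9 LPS-containing groups there were 71 member results past the threshold, 41 higher and 30 lower, spread over 21 members (39.6% of members, against 47% of all genes tested that passed in at least 1 of these groups). At 1 h 18 were higher and 3 lower, at 2 h 14 higher and 1 lower, and at 4 h 9 higher and 26 lower. A member counts here once for each group in which it passed. By the shares of all genes given above for each group, falls at 4 h were about as frequent among members as among all genes. In 64 of the 71 every set lay on the side of the call. The other 7 each had a set at 0 or on the other side, and belonged to Dnaja1, Dnajb2, Dnajc28, Hspa1a, Hspa2, Hspa8 and Hspb8. Most changes were small: 3 of the 71 reached 2-fold, all in Dnajb9. Whether the arrays of different groups drew on the same medium RNA is not stated in the labels, and no likeness between groups is read here as a result.

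Many of these results needed all 3 sets. Of the 71, 55 still passed without set 1 of every group, 48 without set 2 and 27 without set 3, where fewer sets enter the test, and 32 passed when only the groups of the same treatment shared the estimate of the spread. In all 8 settings compared, 20 passed. These were Dnajb1 with LPS at 1 and 4 h and with LPS plus ISO at 4 h, Dnajb4 with LPS at 2 h and in both combinations at 4 h, and Dnajb9 in both combinations at 4 h. They also included Hspa14 in all 3 groups at 4 h, Hspa2 with LPS and with LPS plus PGE2 at 4 h, and Hspa4l with LPS and with LPS plus ISO at 4 h. The last were Hspa1a with LPS at 2 h and with LPS plus ISO at 4 h, and Hspa8 with LPS at 2 h and with LPS plus ISO at 2 and 4 h.

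**Figure D1:**
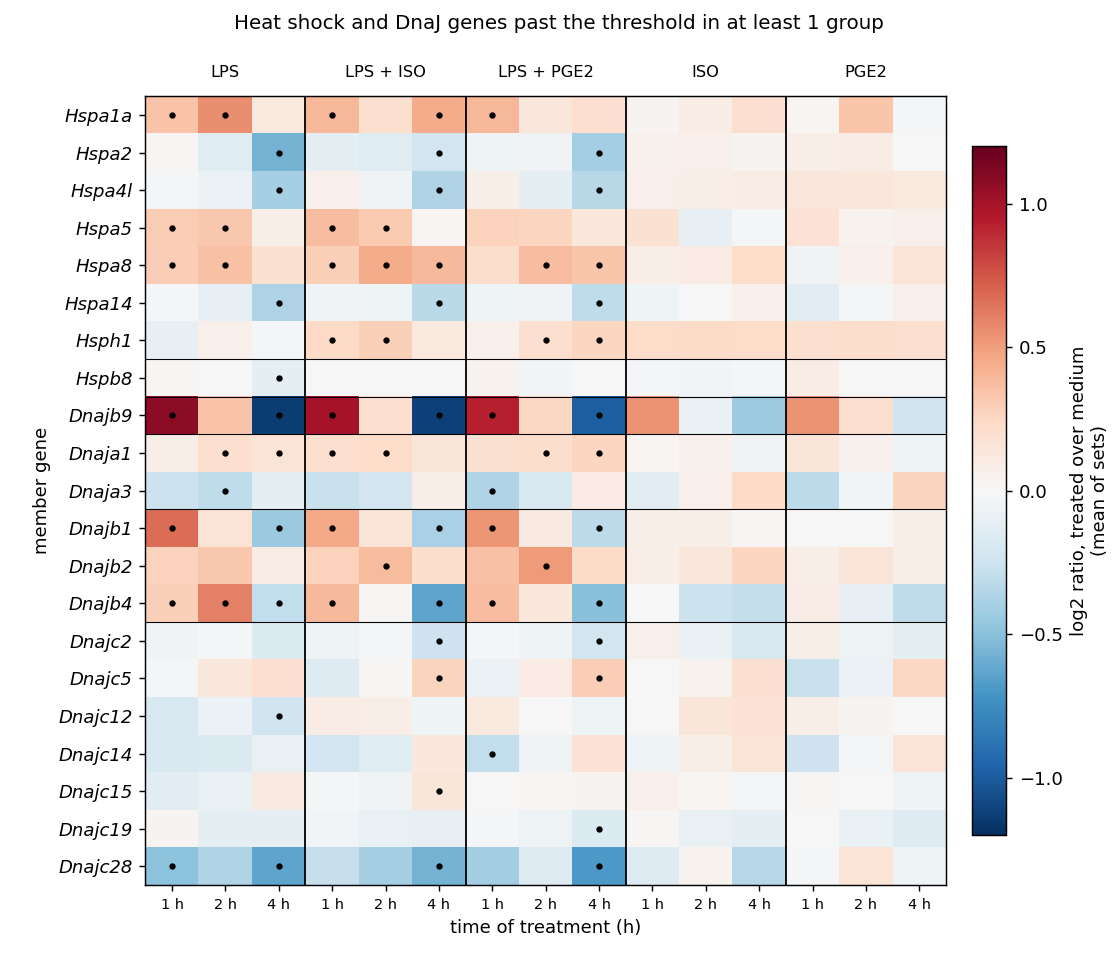
Mean log2 ratio of treated over medium for the 21 members past the threshold in at least 1 group, in rows ordered by role, with treatments and times (1, 2 and 4 h) in columns. Red is higher and blue lower than medium, and a dot marks an adjusted p under 0.05. The dots lie in the LPS-containing columns, with Dnajb9 at 1.07 at 1 h and -1.14 at 4 h with LPS, and there are none in the ISO and PGE2 columns.

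Dnajb9, a DnaJ protein of the endoplasmic reticulum lumen that works with the HSP70 protein of that compartment and is itself a known target of the unfolded protein response, had the largest ratios of any member in both directions. With LPS at 1 h the 3 sets read 1.24, 0.85 and 1.14, a mean of 1.07 ± 0.20 (2.1-fold higher, adjusted p = 0.00171). At 4 h they read -0.66, -1.24 and -1.51, a mean of -1.14 ± 0.43 (2.2-fold lower, adjusted p = 0.00015). Every 1 h set was above medium and every 4 h set below it, with no overlap. LPS plus ISO read 1.13, 0.65 and 1.21 at 1 h (1.00 ± 0.31, adjusted p = 0.00387) and -1.03, -1.31 and -1.03 at 4 h (-1.12 ± 0.16, adjusted p = 0.000191). LPS plus PGE2 read 1.02, 0.93 and 0.84 at 1 h (0.93 ± 0.09, adjusted p = 0.00734) and -0.95, -1.18 and -0.85 at 4 h (-0.99 ± 0.17, adjusted p = 0.000785). Again the 1 h and 4 h sets lay wholly on opposite sides of medium.

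The 2 h values of Dnajb9 were spread widely and none passed. The sets read -0.12, 0.92 and 0.23 with LPS, -0.68, 0.92 and 0.35 with LPS plus ISO and -0.73, 0.91 and 0.57 with LPS plus PGE2, so set 1 was below medium and the other two sets above it in each treatment. With all sets the adjusted p was 0.39, 0.77 and 0.64. Without set 1 the 2 h means were 0.58 (adjusted p = 0.0211), 0.64 (adjusted p = 0.0125) and 0.74 (adjusted p = 0.00448), past the threshold in all 3. Set 1 was the lowest set each time, so leaving it out raises these means by itself, and no rise at 2 h is read from them. Without set 3 the 1 h results of all 3 treatments and the 4 h result of LPS did not pass, nor did LPS plus PGE2 at 1 h without set 2. Both Dnajb9 probes, which carry the same accession, gave the same picture, with 1.08 ± 0.21 and 1.06 ± 0.20 at 1 h and -1.23 ± 0.40 and -1.05 ± 0.47 at 4 h with LPS. The single ligands did not pass: ISO read 0.54, 0.68 and 0.41 at 1 h (adjusted p = 0.386) and -0.48, -0.38 and -0.45 at 4 h (adjusted p = 0.354), and PGE2 read 0.71 and 0.36 at 1 h in its 2 sets (adjusted p = 0.546). These ISO and PGE2 sets were above medium at 1 h, and the ISO sets below it at 4 h. With PGE2 at 4 h the sets of both probes were below medium too, from -0.40 to -0.04 and from -0.39 to -0.03, and neither probe passed.

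Hspa5, known as BiP, is the HSP70 protein of the endoplasmic reticulum and the partner of Dnajb9. Its ratios at 1 h with LPS were 0.34, 0.18 and 0.39, a mean of 0.31 ± 0.11 (adjusted p = 0.0489), and at 2 h 0.16, 0.33 and 0.47, a mean of 0.32 ± 0.16 (adjusted p = 0.0227). With LPS plus ISO it rose to 0.37 ± 0.18 at 1 h, from sets of 0.57, 0.21 and 0.33 (adjusted p = 0.0156), and to 0.32 ± 0.19 at 2 h, from sets of 0.10, 0.38 and 0.47 (adjusted p = 0.0298). With LPS plus PGE2 the means were 0.28 ± 0.19 and 0.26 ± 0.29 (adjusted p = 0.0947 and 0.0899), which did not pass. All sets of the 1 h groups with LPS were above medium, and at 4 h the means of 0.07, 0.03 and 0.12 were not past the threshold. No 4 h mean of Hspa5 lay below medium. Its calls turned on single sets: all 4 were lost without set 2 and without set 3, whereas without set 1 it passed at 4 h too, at 0.14 with LPS (adjusted p = 0.0182), 0.14 with LPS plus ISO (adjusted p = 0.0187) and 0.26 with LPS plus PGE2 (adjusted p = 0.000186).

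Of the other DnaJ proteins grouped here with the endoplasmic reticulum, Dnajb11, Dnajc1, Dnajc3 and Dnajc10 passed in no group as gene means, with values between -0.18 and 0.34. Dnajc3, which inhibits a kinase of the unfolded protein response, came nearest in LPS plus PGE2 at 4 h, with sets of -0.22, -0.18 and -0.09 (adjusted p = 0.0889). Dnajc10, a disulfide reductase that takes part in degradation, read -0.17, -0.18 and -0.16 at 4 h in the LPS-containing groups. Hsp90b1, the HSP90 protein of the same compartment, stayed between -0.14 and 0.16 in the LPS-containing groups without passing.

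Hspa8, the constitutive HSP70 of the cytosol, rose modestly, in 7 of the 9 LPS-containing groups. With LPS its sets read 0.32, 0.20 and 0.36 at 1 h (0.29 ± 0.08, adjusted p = 0.00632) and 0.39, 0.26 and 0.38 at 2 h (0.35 ± 0.07, adjusted p = 0.000502), all above medium. At 4 h they read 0.00, 0.27 and 0.27, and the mean of 0.18 ± 0.16 did not pass (adjusted p = 0.0513). In LPS plus ISO the sets were 0.30, 0.24 and 0.32 at 1 h, 0.54, 0.42 and 0.37 at 2 h and 0.38, 0.36 and 0.42 at 4 h, each time past the threshold (adjusted p = 0.00811, 1.8e-05 and 4.9e-05). In LPS plus PGE2 it passed at 2 h (0.37 ± 0.08, adjusted p = 0.00022) and at 4 h, with sets of 0.00, 0.39 and 0.61 (0.33 ± 0.31, adjusted p = 0.000327). The value of 0 for set 1 in both groups comes from a probe listed at exactly 0 on both arrays. With such values treated as missing, Hspa8 at 4 h was 0.27 with LPS (adjusted p = 0.0137), 0.51 with LPS plus ISO and 0.50 with LPS plus PGE2.

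Hspa1a, the classical stress-inducible HSP70, rose in all 3 LPS-containing groups at 1 h. The sets read 0.63, -0.10 and 0.51 with LPS (0.35 ± 0.39, adjusted p = 0.0285), 0.30, 0.30 and 0.58 with LPS plus ISO (0.40 ± 0.16, adjusted p = 0.0127) and 0.35, 0.19 and 0.66 with LPS plus PGE2 (0.40 ± 0.24, adjusted p = 0.0111). Set 2 of LPS lay below medium, and the single arrays of LPS at 1 h ran from -0.59 to 1.10. At 2 h the LPS sets were 0.75, 0.44 and 0.47, a mean of 0.56 ± 0.17 (1.47-fold, adjusted p = 0.00014), while the combinations read -0.01, 0.43 and 0.17 and 0.00, -0.04 and 0.46 and did not pass. At 4 h LPS plus ISO rose, with sets of 0.48, 0.30 and 0.55 (0.44 ± 0.13, adjusted p = 0.000877), and the means of 0.12 with LPS and 0.20 with LPS plus PGE2 did not pass. PGE2 alone at 2 h gave sets of 0.21, 0.51 and 0.28, all above medium, with an adjusted p of 0.241.

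Hspa1b, the near-identical neighbour of Hspa1a whose promoter is printed above, did not pass in any group. Its 2 probes differed in sign in several groups, for instance 0.15 ± 0.24 and -0.35 ± 0.50 in LPS plus PGE2 at 1 h, although they carry the same accession. What the probes of this pair report for either gene is therefore uncertain.

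Hsph1, an HSP110 protein that acts as nucleotide exchange factor, rose in the combinations and gave no result past the threshold with LPS alone. In LPS plus ISO its means were 0.24 ± 0.18 at 1 h (adjusted p = 0.0268) and 0.28 ± 0.07 at 2 h (adjusted p = 0.00338). LPS plus PGE2 gave 0.20 ± 0.03 at 2 h (adjusted p = 0.0466) and 0.26 ± 0.10 at 4 h (adjusted p = 0.00377). With LPS alone the sets read -0.36, 0.01 and 0.06 at 1 h, -0.03, 0.07 and 0.14 at 2 h and -0.01, -0.02 and -0.01 at 4 h. The single ligands gave sets of 0.35, 0.11 and 0.19, 0.30, 0.13 and 0.25 and 0.28, 0.17 and 0.19 for ISO at 1, 2 and 4 h and 0.28 and 0.11, 0.29, 0.15 and 0.20 and 0.14, 0.24 and 0.20 for PGE2. All of these single-ligand sets were above medium, and none of the 6 groups passed (lowest adjusted p = 0.0796, ISO at 4 h). Set directly against LPS, Hsph1 was higher by 0.33 in LPS plus ISO at 1 h (95% interval 0.13 to 0.53, adjusted p = 0.814), so the difference was not established.

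**Figure D2:**
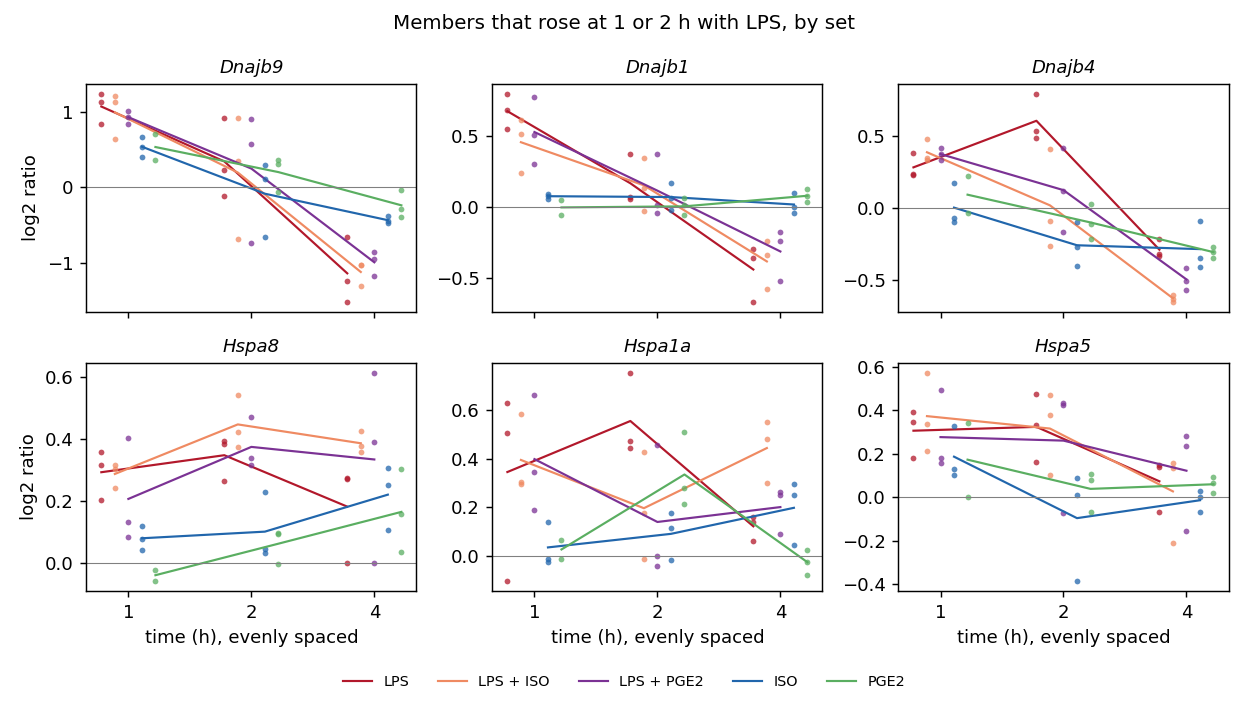
Log2 ratio of treated over medium against time for 6 members that rose at 1 or 2 h with LPS, with 1, 2 and 4 h evenly spaced; points are sets, lines join group means, and colours are treatments. Each panel has its own vertical scale. Dnajb9 and Dnajb1 run from above medium at 1 h to below it at 4 h in the 3 LPS-containing treatments, while the means of Hspa8 in those treatments stay above medium.

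Dnajb1, the main stress-inducible DnaJ partner of cytosolic HSP70, was also above medium at 1 h and below it at 4 h, at a smaller size than Dnajb9. With LPS its sets read 0.68, 0.55 and 0.79 at 1 h (0.67 ± 0.12, 1.59-fold higher, adjusted p = 1.6e-06) and -0.30, -0.67 and -0.36 at 4 h (-0.44 ± 0.20, 1.36-fold lower, adjusted p = 0.000132). LPS plus ISO read 0.23, 0.51 and 0.61 at 1 h (adjusted p = 0.000631) and -0.34, -0.58 and -0.24 at 4 h (adjusted p = 0.000719). LPS plus PGE2 read 0.30, 0.51 and 0.77 at 1 h (adjusted p = 9.1e-05) and -0.25, -0.53 and -0.18 at 4 h (adjusted p = 0.00506). Within each of these treatments every set was above medium at 1 h and below it at 4 h. At 2 h the means of 0.16, 0.15 and 0.11 did not pass. ISO and PGE2 alone left Dnajb1 between -0.01 and 0.08, with no result past the threshold.

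Dnajb4, a close relative of Dnajb1 in the cytosol, peaked at 2 h with LPS and at 1 h in the combinations. Its LPS sets read 0.23, 0.23 and 0.38 at 1 h (0.28 ± 0.09, adjusted p = 0.0436), 0.54, 0.49 and 0.79 at 2 h (0.61 ± 0.16, adjusted p = 5.3e-06) and -0.22, -0.32 and -0.33 at 4 h (-0.29 ± 0.06, adjusted p = 0.0117). In LPS plus ISO they read 0.48, 0.34 and 0.34 at 1 h (adjusted p = 0.00441), -0.26, 0.41 and -0.09 at 2 h (adjusted p = 1) and -0.60, -0.63 and -0.65 at 4 h (adjusted p = 8.2e-07). In LPS plus PGE2 they read 0.41, 0.34 and 0.37 at 1 h (adjusted p = 0.00611), -0.17, 0.42 and 0.12 at 2 h (adjusted p = 0.512) and -0.42, -0.57 and -0.51 at 4 h (adjusted p = 3.5e-05). At 2 h every LPS set lay above every set of the combinations. Set against LPS at 2 h, the log2 ratio of Dnajb4 differed by -0.59 with ISO (95% interval -0.85 to -0.33) and by -0.48 with PGE2 (95% interval -0.74 to -0.22), but after adjustment neither passed (adjusted p = 0.214 and 1). When each set was left out in turn, the ISO difference at 2 h passed only without set 2, at -0.84 (adjusted p = 0.0282). Set 2 had the highest combination values, so leaving it out enlarges the difference by itself. The single ligands at 4 h read -0.10, -0.35 and -0.42 with ISO (adjusted p = 0.076) and -0.27, -0.31 and -0.35 with PGE2 (adjusted p = 0.109), all sets below medium though not past the threshold.

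Dnaja1, a class A DnaJ protein of the cytosol, rose by small amounts in 6 LPS-containing groups, most in LPS plus PGE2 at 4 h (0.39, 0.25 and 0.14, mean 0.26 ± 0.12, adjusted p = 0.001). It was 0.20 ± 0.12 with LPS at 2 h (adjusted p = 0.023), and with the set number as a block it passed in LPS plus PGE2 at 1 h (0.18, adjusted p = 0.0316) and LPS plus ISO at 4 h (0.15, adjusted p = 0.0342) too. All 6 results of Dnaja1 were lost without set 1. Only that of LPS plus PGE2 at 4 h was kept when groups of the same treatment alone shared the spread. Dnajb2, which binds ubiquitin and passes clients towards degradation, rose at 2 h in the combinations. Its sets were -0.04, 0.46 and 0.72 with LPS plus ISO (adjusted p = 0.0368) and 0.34, 0.51 and 0.68 with LPS plus PGE2 (0.51 ± 0.17, adjusted p = 0.00359). With LPS alone at 2 h they were 0.07, 0.37 and 0.54 (adjusted p = 0.0728), so that the sets of the 3 treatments overlapped. Dnaja3, a class A protein of mitochondria, was lower with LPS at 2 h (-0.33, -0.38 and -0.20, mean -0.30 ± 0.09, adjusted p = 0.0285) and with LPS plus PGE2 at 1 h (-0.54, -0.11 and -0.43, mean -0.36 ± 0.22, adjusted p = 0.0151).

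At 4 h 7 members were lower in all 3 LPS-containing groups, 13.2% of members against 12.3% of all genes tested, which is a share near the background. They were Dnajb9, Dnajb1 and Dnajb4, described above, and Hspa14, Hspa2, Hspa4l and Dnajc28, which had not risen earlier. Hspa14 is an HSP70 protein that sits on the ribosome. Its sets at 4 h read -0.41, -0.31 and -0.38 with LPS (-0.37 ± 0.05, 1.29-fold lower, adjusted p = 1.4e-07), -0.39, -0.19 and -0.40 with LPS plus ISO (adjusted p = 1.2e-06) and -0.33, -0.23 and -0.34 with LPS plus PGE2 (adjusted p = 4.2e-06). The fall was small, and within each group every set lay below medium. At 1 and 2 h the means lay between -0.10 and -0.02, and none passed. Dnajc2, the DnaJ partner of Hspa14 on the ribosome, fell at 4 h in both combinations, with sets of -0.29, -0.11 and -0.36 in LPS plus ISO (adjusted p = 0.0129) and -0.15, -0.09 and -0.41 in LPS plus PGE2 (adjusted p = 0.0334). With LPS alone Dnajc2 read -0.10, -0.19 and -0.19, and the mean of -0.16 did not pass (adjusted p = 0.138).

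Hspa2, an HSP70 protein best known from developing sperm, had the largest fall past the threshold in the HSP70 family. Its 4 h sets read -0.62, -0.56 and -0.50 with LPS (-0.56 ± 0.06, 1.48-fold lower, adjusted p = 1.3e-07), -0.27, -0.43 and -0.50 with LPS plus PGE2 (-0.40 ± 0.12, adjusted p = 3.5e-05) and 0.07, -0.44 and -0.33 with LPS plus ISO (-0.23 ± 0.27, adjusted p = 0.0131). In LPS plus ISO set 1 lay above medium, and every LPS set lay below every set of that combination. The direct difference was 0.33 (95% interval 0.12 to 0.54) and did not pass (adjusted p = 0.649). Hspa4l, an HSP110 protein, read -0.48, -0.27 and -0.46 with LPS (-0.40 ± 0.12, adjusted p = 0.000196), -0.51, -0.27 and -0.30 with LPS plus ISO (adjusted p = 0.000842) and -0.50, -0.26 and -0.23 with LPS plus PGE2 (adjusted p = 0.0019). Within each of these groups every set of Hspa4l was below medium. The 4 h means of Hsph1, of the same family, were -0.01, 0.11 and 0.26.

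Dnajc28, a class C DnaJ protein, had the second-largest ratios after Dnajb9. The sets at 4 h read 0.00, -0.92 and -0.97 with LPS (-0.63 ± 0.55, adjusted p = 0.00217), -0.26, -0.73 and -0.72 with LPS plus ISO (-0.57 ± 0.27, adjusted p = 0.00547) and -0.42, -0.80 and -0.84 with LPS plus PGE2 (-0.69 ± 0.23, adjusted p = 0.000855). At 1 h LPS gave -0.90, -0.26 and -0.31, a mean of -0.49 ± 0.36 (adjusted p = 0.0469). Its probe was listed at exactly 0 on both arrays of set 1 with LPS at 4 h. Without set 2 or without set 3 the 4 h results of LPS and of LPS plus ISO did not pass. The 4 h result of LPS plus PGE2 did not pass without set 2, and the 1 h result of LPS was lost whichever set was left out. With exact zeros treated as missing the LPS mean at 4 h was -0.94 (adjusted p = 0.00164).

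**Figure D3:**
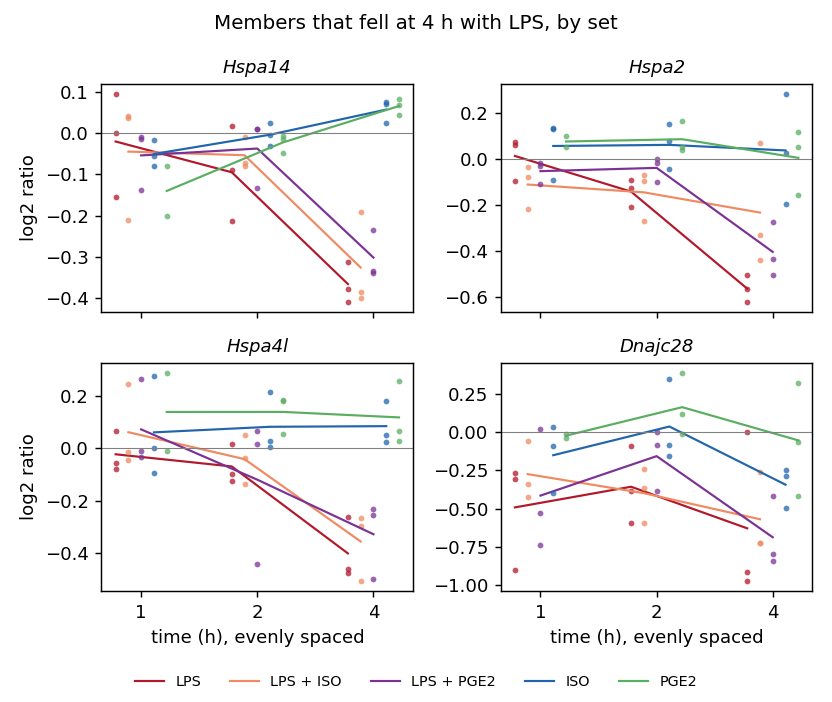
Log2 ratio of treated over medium against time for 4 members that fell at 4 h with LPS and had not risen before, with 1, 2 and 4 h evenly spaced; points are sets, lines join group means, and colours are treatments. Each panel has its own vertical scale. At 4 h every set of Hspa14 and of Hspa4l lies below medium within each LPS-containing group, while the ISO and PGE2 sets lie above it.

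Among the remaining class C proteins, Dnajc5, the cysteine string protein of secretory vesicles, rose at 4 h in the combinations (0.30, 0.04 and 0.45 with ISO, adjusted p = 0.0346; 0.23, 0.17 and 0.48 with PGE2, adjusted p = 0.0174). With LPS alone it read 0.30, 0.02 and 0.28 (adjusted p = 0.125). The other class C results were 1 group each: Dnajc12 at -0.24 ± 0.03 with LPS at 4 h (adjusted p = 0.021), Dnajc14 at -0.30 ± 0.21 with LPS plus PGE2 at 1 h (adjusted p = 0.0414), Dnajc15 at 0.15 ± 0.08 with LPS plus ISO at 4 h (adjusted p = 0.0133) and Dnajc19 at -0.16 ± 0.03 with LPS plus PGE2 at 4 h (adjusted p = 0.0285). Dnajc15 and Dnajc19 serve protein import at the inner mitochondrial membrane, and Dnajc14 is a protein of the endoplasmic reticulum membrane. Of the 6 small heat shock proteins, which hold unfolded protein without using ATP, only Hspb8 passed, with LPS at 4 h (-0.11 ± 0.18, adjusted p = 0.0369). That value came from a single array at -0.63, with the other 5 arrays of the group listed at 0.

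**Figure D4:**
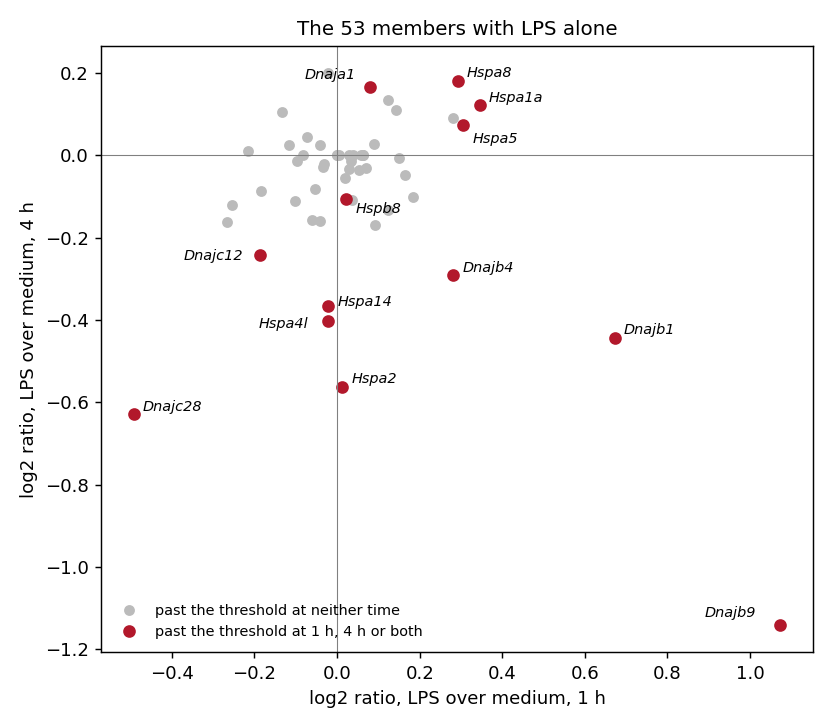
Mean log2 ratio of LPS over medium at 4 h against that at 1 h, 1 point for each of the 53 members, with those past the threshold at either time in red and named. Dnajb9 (1.07, -1.14), Dnajb1 (0.67, -0.44) and Dnajb4 (0.28, -0.29) lie at the lower right, above medium at 1 h and below it at 4 h, and most members lie near 0 at both times.

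The change between 1, 2 and 4 h was tested directly with limma's F test, adjusted over all genes. Ratios differed between times for 7 of the 53 members with LPS, against 18.5% of all genes tested. The count was 5 of 53 with LPS plus ISO (against 17.6% of all genes) and 8 of 53 with LPS plus PGE2 (against 17.8%). In each treatment the share of members was below that of all genes. Dnajb1 (adjusted p = 1.1e-07 with LPS), Dnajb4 (adjusted p = 6.8e-06), Dnajb9 (adjusted p = 1.0e-05), Hspa14 (adjusted p = 0.000472) and Hspa4l (adjusted p = 0.0311) passed in all 3 treatments. Hspa2 passed with LPS (adjusted p = 0.000187) and LPS plus PGE2 (adjusted p = 0.0121), Dnajc15 with LPS, and Dnaja3 and Dnajc14 with LPS plus PGE2. The ratios of these last 3 were higher at 4 h than at 1 h. For ISO (0.589%) and PGE2 (0.00951%) no member differed between times.

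ISO and PGE2 alone moved no member past the threshold. With ISO 0 members passed at 1 h (0.903% of all genes tested, 0.713% higher and 0.19% lower), at 2 h (1.71%, 0.884% higher and 0.827% lower) and at 4 h (3.36%, 1.87% higher and 1.48% lower). Unadjusted, limma's p was under 0.05 for 6, 4 and 10 members. With PGE2 0 passed at 1 h (0.323% of all genes, 0.2% higher and 0.124% lower), at 2 h (0.456%, 0.238% higher and 0.219% lower) and at 4 h (1.14%, 0.542% higher and 0.599% lower), with 11, 5 and 7 members at an unadjusted p under 0.05. The percentages of all genes are for the adjusted p. The share of all genes at the unadjusted threshold was not counted, so the unadjusted counts do not show a response of the members. Without set 1 of every group, 6 members passed with ISO at 4 h, among them Dnajb4 at -0.38 and Hsph1 at 0.18. Dnajb11 then passed with ISO at 1 h (0.23) and Hsph1 with ISO at 2 h (0.19), and with PGE2 at 4 h Hsph1 (0.22) and Dnajc19 (-0.17) passed. These 4 members were named after their values were seen. The share of all genes that passed without set 1 is not given here, so these counts do not set the members apart.

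The combinations were also set against LPS at the same time, which asks whether ISO or PGE2 alters the LPS response. No member passed in the 6 comparisons. At an unadjusted p under 0.05 in limma there were 4, 3 and 3 members with ISO at 1, 2 and 4 h and 2, 3 and 1 with PGE2. Here too the share of all genes at that unadjusted threshold was not counted. After adjustment 0.019% of all genes passed with ISO at 1 h (0.00951% in each direction), 0% at 2 h and 0.0951% at 4 h (0.0475% in each direction), and with PGE2 0%, 0% and 0.0285% (0.00951% higher, 0.019% lower at 4 h). Dnajb4 at 2 h had the smallest unadjusted p. Hspa1a at 2 h differed from LPS by -0.36 with ISO (95% interval -0.66 to -0.06) and by -0.42 with PGE2 (95% interval -0.72 to -0.12), each with an adjusted p of 1. For Dnajb9 the interval of the difference at 1 h ran from -0.74 to 0.58 with ISO. The labels name lipid binding protein for LPS alone, and its part in these differences cannot be told apart. A test of whether a combination departed from the sum of its single treatments gave 0 members for ISO (0.0856% of all genes) and 0 for PGE2 (0.00951%).

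The 32 members that passed in no group had means between -0.36 and 0.34 over all 15 groups. They included the cytosolic HSP90 Hsp90aa1, the mitochondrial chaperonin pair Hspd1 and Hspe1 (-0.21 to 0.17) and, of the HSP70 and HSP110 family, Hspa1b, Hspa1l, Hspa4, Hspa9 and Hspa13 (-0.24 to 0.19). Hspe1 had its lowest adjusted p with LPS at 1 h, with sets of -0.63, -0.07 and 0.06 (adjusted p = 0.0744). The small heat shock proteins Hspb1, Hspb2, Hspb3, Hspb7 and Hspb9 lay between -0.28 and 0.32, and Hspbp1, which helps HSP70 release its nucleotide, between -0.15 and 0.20. Of the DnaJ proteins, Dnaja2 and Dnaja4 lay between -0.09 and 0.09, Dnajb3, Dnajb5, Dnajb6, Dnajb7, Dnajb8 and Dnajb12 between -0.23 and 0.18, and Dnajc4, Dnajc5b, Dnajc7, Dnajc24 and Dnajc30 between -0.36 and 0.24. Dnajc7, a co-chaperone of both HSP70 and HSP90, read -0.61, -0.04 and -0.15 with LPS at 1 h (adjusted p = 0.0589). With the set number as a block Dnajc7 passed there (adjusted p = 0.0376), as did Hspbp1 in LPS plus ISO at 4 h (0.20, adjusted p = 0.0363). A value inside these ranges does not show that a transcript was unaltered, least of all for the members listed at 0 on most arrays.

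Dnaja2, a class A DnaJ protein of the cytosol, has 2 probes that went opposite ways. Its means with LPS were 0.06, 0.04 and 0.00 at 1, 2 and 4 h. Fitted on its own, probe 18427 was higher than medium in all 9 LPS-containing groups, for example 0.19 ± 0.19, 0.23 ± 0.06 and 0.27 ± 0.03 with LPS (adjusted p = 0.0223, 0.00207 and 0.000123, limma over all probes). Probe 9814 read -0.06 ± 0.14, -0.16 ± 0.24 and -0.27 ± 0.16 in the same groups and was past the threshold only in LPS plus ISO at 4 h, at -0.31 ± 0.37 (adjusted p = 0.028). The probes carry different accessions, and which of them reports Dnaja2 was not tested. Single probes of 3 other members that did not pass as gene means passed on their own. Probe 8981 of Dnajc3 was higher with LPS at 1 h (0.25 ± 0.25, adjusted p = 0.0287), where its other probe read 0.12 ± 0.22. Probe 7428 of Dnajc7 was lower with LPS at 1 h (-0.36 ± 0.35, adjusted p = 0.0175), where its other probe read -0.18 ± 0.26. Probe 13364 of Dnajc1 was lower at 2 h with LPS (-0.12 ± 0.05, adjusted p = 0.0498) and with LPS plus PGE2 (-0.13 ± 0.04, adjusted p = 0.0331), and its other probe differed from 0 on 4 of the 88 arrays.

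**Figure D5:**
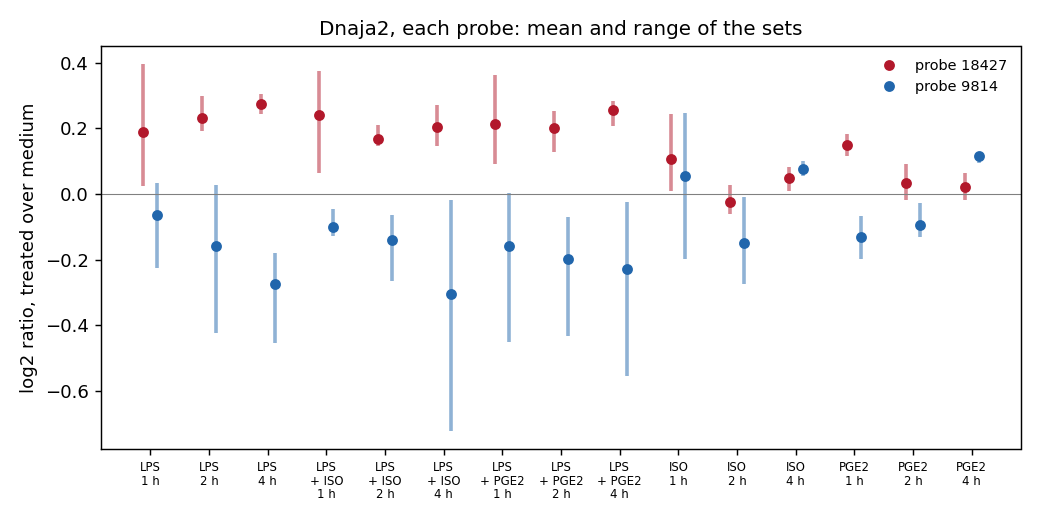
Log2 ratio of treated over medium for the 2 probes of Dnaja2 in each of the 15 groups; points are means and bars run from the lowest to the highest set. In the 9 LPS-containing groups probe 18427 has means of 0.17 to 0.27, and probe 9814 has means of -0.31 to -0.06.

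Partners and regulators outside the family were read from 2 lists. The first held 33 cytosolic chaperones, co-chaperones and heat shock factors, of which 27 were measured apart from Hspbp1, a member. With LPS 0 rose and 1 fell at 1 h (3.7% of the list, against 9.48% of all genes), 0 rose and 2 fell at 2 h (7.41%, against 15.9%), and 4 rose and 3 fell at 4 h (25.9%, against 30.7%). In LPS plus ISO the counts were 0 and 0, 1 and 2, and 5 and 2 (0%, 11.1% and 25.9%), and in LPS plus PGE2 0 and 1, 0 and 2, and 4 and 4 (3.7%, 7.41% and 29.6%), each share below that of all genes given above. The median ratio of the list with LPS was -0.03, 0.04 and 0.02. Bag4 and Bag3, which release HSP70 from its clients, were lower at 4 h, at -0.64 ± 0.19 (adjusted p = 6.8e-08) and -0.58 ± 0.23 (adjusted p = 0.00122) with LPS. Hsbp1, a small protein that binds heat shock factor 1, was lower at 1 h (-0.39 ± 0.21, adjusted p = 0.000673) and 2 h (-0.42 ± 0.06, adjusted p = 0.000113). Cryab, a small heat shock protein by structure whose symbol lies outside the rule, was higher at 4 h, at 0.87 ± 0.13 with LPS (adjusted p = 3.3e-06) and 0.86 ± 0.29 with LPS plus PGE2 (adjusted p = 3.7e-06). The other genes of this list that were higher with LPS at 4 h were Chordc1 (0.32 ± 0.19, adjusted p = 0.0119), Cdc37 (0.28 ± 0.24, adjusted p = 0.0293) and Cct3 (0.20 ± 0.18, adjusted p = 0.0278), and Stub1 was lower (-0.27 ± 0.14, adjusted p = 0.0142).

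The other list held 33 symbols of endoplasmic reticulum stress and folding, 25 of them measured. With LPS 4 rose and 1 fell at 1 h (20% of the list), 5 rose and 1 fell at 2 h (24%), and 5 rose and 1 fell at 4 h (24%), against 9.48%, 15.9% and 30.7% of all genes. In LPS plus ISO the counts were 5 and 0, 5 and 1, and 4 and 0 (20%, 24% and 16%), and in LPS plus PGE2 4 and 0, 6 and 1, and 5 and 0 (16%, 28% and 20%). The median ratio of the list with LPS was 0.02, 0.01 and 0.02. Ppp1r15a, which reverses the stress block on translation, had the largest ratio, 3.06 ± 0.04 with LPS at 1 h (adjusted p = 2.1e-11), and was still at 1.53 ± 0.15 at 4 h. Ddit3 rose at 1 h only (1.10 ± 0.30, adjusted p = 1.4e-08, with LPS), Herpud1 at 1 and 2 h (0.78 ± 0.39 and 1.13 ± 0.17) and Syvn1, a ubiquitin ligase for misfolded protein, at 2 and 4 h (0.30 ± 0.01 and 0.57 ± 0.02). Atf4, the transcription factor upstream of Ddit3, was higher at all 3 times (0.46 ± 0.04, 0.26 ± 0.13 and 0.34 ± 0.09). Ero1b, an oxidase, was lower at each time with LPS alone (-0.67 ± 0.71, -0.70 ± 0.17 and -0.44 ± 0.16). In the combinations no gene of this list was lower past the threshold at 1 h or at 4 h. Most of the 25 measured genes are not named here. In the ISO and PGE2 groups no gene of either list passed.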

How the data were processed

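The deposited table holds 1 column per array of the authors' processed ratios of the 2 channels, which were taken as log2 values. Image analysis, background correction and normalization of the deposited log2 ratios were steps not given in the sources used. Neither scale nor direction is stated. Every column has a median of 0, and the table's largest absolute value is 6.64. Of 16281 probes, 13790 were in the platform's annotation, 13738 with 1 gene symbol and 52 with several, and 13694 of the former were updated through their Entrez id (RefSeq, GRCm38.p6). After 478 probes at 0 on every array were left out, 13260 probes gave 10518 genes, each the mean of its probes, 2452 of them with several probes. Between 10.95% and 45.67% of a column was exactly 0 (median 28.3%), which may mark a filtered spot, and 0 was kept as the value. The values hold no intensities, so only the number of arrays limits the precision that can be stated.

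The 2 arrays of a dye-swap pair were averaged to 1 replicate, and all 44 pair means were fitted in 1 model with 15 group means in limma 3.58.1 under R 4.3.3 (lmFit and eBayes without trend, 29 residual and 2.678 prior degrees of freedom). Comparisons with medium, with LPS, over time and with the sum of single treatments were adjusted by the Benjamini-Hochberg method over all genes, two-sided, at 0.05. The steps were also run on simulated data with independent normal noise for each gene and pair. Those data held no exact zeros and no likeness between sets of the same number, so the run does not vouch for the error rate here. Intervals are limma's at 95%. The labels do not say that set numbers pair the sets, and the main fit did not pair them. Same-numbered sets correlated, after group means were removed, at a median of 0.092 (-0.419 to 0.766), against -0.0439 for other numbers. Of 301 same-numbered pairs 148 were over 0.1, and 39 of 44 set means correlated best with their own number. The main fit left this likeness by set number in the spread. Alternatives were exact 0 as missing, arrays centred on values other than 0, genes measured on at least 44 arrays, the set number as a block, leaving out each set, a fit of each treatment alone and, chosen after seeing the data, each probe fitted on its own. Every member past the threshold is named where its log2 ratio was largest, the 10 with the largest ratios are given by set, and the others by the range of their means; genes outside the family come from the 2 lists. The members and lists were chosen with earlier results of these data known.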

Additional observations from a re-analysis of the deposited data

Results flagged for a closer look

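Ratios that differed between 1, 2 and 4 h of the same treatment in limma's F test (Benjamini-Hochberg adjusted over all genes) are given here as the log2 ratio at 4 h minus that at 1 h. In each treatment the share of members that differed was below that of all genes tested, as given above. With LPS the difference was -2.21 for Dnajb9 (adjusted p = 1.0e-05), -1.12 for Dnajb1 (adjusted p = 1.1e-07), -0.58 for Hspa2, -0.57 for Dnajb4, -0.38 for Hspa4l, -0.34 for Hspa14 and 0.24 for Dnajc15. With LPS plus ISO it was -2.12 for Dnajb9, -1.02 for Dnajb4, -0.84 for Dnajb1, -0.42 for Hspa4l and -0.28 for Hspa14. With LPS plus PGE2 it was -1.92 for Dnajb9, -0.87 for Dnajb4, -0.84 for Dnajb1, -0.40 for Hspa4l, -0.35 for Hspa2 and -0.25 for Hspa14, while Dnajc14 (0.47) and Dnaja3 (0.46) had higher ratios at 4 h. Each time had its own medium cells, so a change of the medium cells over time was not tested.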

How the results depend on the processing

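When only the groups of the same treatment shared the estimate of the spread, fewer members passed against medium: 1 with LPS at 1 h, 1 and 2 with LPS plus ISO at 1 and 2 h, and 0, 1 and 8 with LPS plus PGE2 at 1, 2 and 4 h, from a fit with fewer sets. With each probe fitted on its own, 7 passed with LPS plus PGE2 at 2 h. Leaving out each set in turn gave 1 to 6, 3 to 10 and 5 to 11 members with LPS at 1, 2 and 4 h, 0 to 6, 1 to 8 and 7 to 14 with LPS plus ISO, and 0 to 6, 1 to 8 and 10 to 14 with LPS plus PGE2. It gave 0 to 1, 0 to 1 and 0 to 6 with ISO, 0 to 2 with PGE2 at 4 h, and 0 to 1 for LPS plus ISO against LPS at 2 h. For differences over time it gave 4 to 11 with LPS, 3 to 11 with LPS plus ISO and 3 to 13 with LPS plus PGE2. Hspb8 with LPS at 4 h ranged from -0.16 (without set 2 or set 3) to 0 (without set 1). With the set number as a block, 8, 6 and 10 members passed with LPS, 8, 5 and 14 with LPS plus ISO and 7, 4 and 13 with LPS plus PGE2, no call was lost, and 4 were gained (Dnajc7, Hspbp1 and Dnaja1 in 2 groups); 39 of 44 sets correlated best with their own number, a hint from the data and not from the design. Of the 71 calls, 65 passed with exact 0 as missing, and all 71 kept their call with arrays centred on values other than 0. The member counts of these settings are given without the share of all genes in the same fit. They show how the calls depend on the settings, not whether the members stand apart. Differences over time and the tests of additivity were not run with the filter on measured arrays, the fit of each treatment alone or each probe on its own, and comparisons with LPS were not run with that filter or in that fit.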
